A study of Drosophila melanogaster with 2 samples.

Results

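In whole Drosophila melanogaster embryos carrying GFP-tagged BuGZ, 433 of the 2413 reproducible BuGZ ChIP-seq peaks lay deep inside introns (17.9%, 95% Wilson interval 16.5 to 19.5). A peak was counted here when its summit was more than 1000 bp from every annotated transcription start site (TSS), lay inside an annotated transcript and touched no exon. The rest of the list comprised 254 peaks in introns between 250 bp and 1000 bp from a TSS, 264 in intergenic sequence, 1357 within 250 bp of a TSS and 105 in exons. The series holds 1 group, 2 biological replicates of transgenic embryos aged 0 to 16 h from a stable line with GFP on the C terminus of CG17912, the annotation symbol of BuGZ. Males and females were pooled, chromatin was sonicated to 200 to 800 bp, and every cell type of the embryo contributed to each library, so a peak in few cells and a weak peak in many cells cannot be told apart. The description label calls both libraries input controls, whereas the antibody label names CG17912. The control library used for normalization was not analysed here, and no second condition, untagged line or stage series allows a comparison between groups.

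BuGZ is a zinc finger protein known in human and Xenopus cells as a partner of the spindle checkpoint protein Bub3 that loads it onto kinetochores and promotes spindle assembly. Introns of fly developmental genes hold many enhancers, short stretches of DNA bound by sequence-specific factors that raise transcription from a promoter at a distance. Forkhead factors are one family of such DNA-binding proteins, and GAGA factor, encoded by Trl, is another that binds GA repeats.

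The sequences under the peaks are shown first because short AT-rich words distinguished them from weaker candidates. The 5 regions below are among those of highest signal that hold the word GTAAACA within 50 bp of the summit, among members on the chromosome arms from which sequence is shown, where 40 of 340 members held it. Each is 101 bases of the dm6 (Release 6) RefSeq sequence, centred on the summit and written 5′ to 3′ on the strand that carries the word, with GTAAACA in capitals. The hosts are Trl (GAGA factor; chr3L:14759445-14759545, plus strand), S (Star, needed to export the Egfr ligand Spitz; chr2L:1072329-1072429, plus strand), Atg17 (autophagy initiation; chr3R:5672724-5672824, minus strand), Oatp30B (an organic anion transporter; chr2L:9525843-9525943, plus strand) and Csk (C-terminal Src kinase; chr3R:11649627-11649727, plus strand).
Trl: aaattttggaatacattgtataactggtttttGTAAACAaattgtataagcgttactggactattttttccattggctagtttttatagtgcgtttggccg
S: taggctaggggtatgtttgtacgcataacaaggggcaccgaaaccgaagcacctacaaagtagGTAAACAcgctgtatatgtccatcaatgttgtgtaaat
Atg17: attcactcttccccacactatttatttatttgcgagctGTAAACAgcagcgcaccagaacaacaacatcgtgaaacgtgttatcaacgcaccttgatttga
Oatp30B: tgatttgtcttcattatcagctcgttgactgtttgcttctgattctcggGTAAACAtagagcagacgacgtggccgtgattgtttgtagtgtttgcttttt
Csk: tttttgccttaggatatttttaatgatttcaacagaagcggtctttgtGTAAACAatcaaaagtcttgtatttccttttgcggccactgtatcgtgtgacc

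GTAAACA occurred within 100 bp of the summit in 16.4% of the deep intronic peaks, against 4.86% of lower candidates and 4.19% of intron windows. Lower candidates are the 5746 deep intronic regions at ranks 15001 to 30000 of the authors' pooled candidate list, and intron windows are 244976 windows of the same length tiled over deep intron sequence. Both strands were searched, and overlapping matches counted once per region. In the 5 regions printed above the centre of the word lay 1 to 16 bp from the summit. Their peaks ranked between 96 and 313 in replicate 1 and between 32 and 351 in replicate 2.

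The same letters appeared in a comparison of all 2080 words of 6 bases, each counted with its reverse complement. The 10 words with the largest difference between the peaks and lower candidates are given here. GTAAAC, the start of the word printed above, was present in 97 of 433 peaks (22.4%) and in 9.15% of lower candidates, a difference of 13.2 percentage points (95% Newcombe interval 9.49 to 17.5). TAAACA, the end of that word, was present in 31.9% of peaks and 18.4% of lower candidates. TGTAAA was present in 26.8% of peaks and 14.5% of lower candidates. TAAATA had the largest difference, with 42.7% of peaks and 24.8% of lower candidates (17.9 points, 13.2 to 22.7). CAAACA was present in 40.9% of peaks and 24.5% of lower candidates, AAATAT in 44.1% of peaks and 27.1% of lower candidates, and CAAATA in 34.6% of peaks and 20.3% of lower candidates. AATATT (27.5% of peaks and 13.9% of lower candidates), ATTTAC (27.0% of peaks and 14.1% of lower candidates) and TATTGA (22.6% of peaks and 10.8% of lower candidates) complete the set. With replicate 2 alone the difference was 7.40 points for ATTTAC, against 12.9 with the reproducible list, and 11.1 points for AAATAT, against 17.0. These words overlap one another and were picked as the largest of all differences, so their values are descriptions, and all intervals on shares of regions cover counting error only.

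Peaks and lower candidates also differed in base composition. The median GC content within 100 bp of the summit was 40.3% in the deep intronic peaks, 44.3% in lower candidates and 40.3% in intron windows. With both sets limited to a GC content of 35.8 to 45.8%, which left 233 peaks and 2773 lower candidates, the difference for GTAAAC was 14.2 points. The windows matched the peaks in median GC content and held GTAAAC in 9.22%, close to the lower candidates. This did not hold for all words. Windows had a higher share than lower candidates for AAATAT (34.0% and 27.1%), TAAATA (29.2% and 24.8%) and AATATT (18.1% and 13.9%). Of the 10 words only CAAACA had a lower share in windows (21.4% and 24.5%).

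A set of 4 words, GTAAACA with GTAAATA and their counterparts that begin with A, ATAAACA with ATAAATA, shares the pattern of letters that forkhead proteins bind, and was grouped after the word counts had been seen. At least 1 of them occurred in 207 of 433 deep intronic peaks (47.8%), 26.9% of lower candidates and 27.3% of intron windows, a difference from lower candidates of 20.9 points (16.1 to 25.7). The words that start with G differed more than those that start with A: GTAAATA was found in 16.2% of peaks and 5.22% of lower candidates, whereas ATAAACA was found in 11.3% and 8.27% and ATAAATA in 17.3% and 13.1%. From each replicate's own 2413 strongest regions, the difference for the 4 words was 16.0 points with replicate 2 alone and 22.3 points with replicate 1 alone. A total of 70 peaks (16.2%) held 2 or more matches, against 6.14% of lower candidates. A match is a string of letters in a window and does not show which protein, if any, was bound.

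The matches were concentrated at the summit. In bins of 25 bp, forkhead-type words were present in 13.9% of peaks in the bin just before the summit, 11.8% in the bin just after it and 10.9% in the next, against about 4% of lower candidates in the same bins. Beyond 75 bp the peaks ranged between 2.77% and 6.47% per bin.

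**Figure D1:**
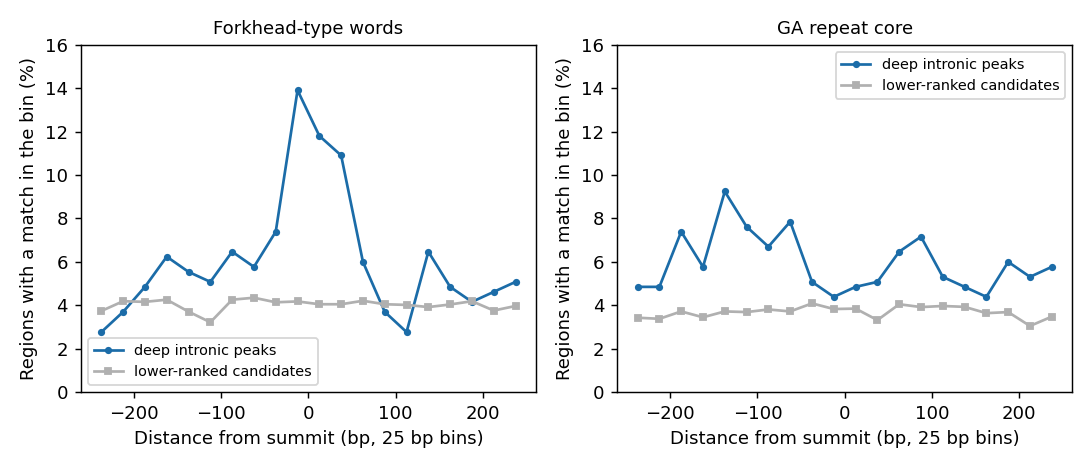
Percentage of regions with at least 1 match (y axis) in each 25 bp bin of distance from the summit (x axis), for deep intronic peaks (blue circles) and lower-ranked deep intronic candidates (grey squares). Forkhead-type words (left) reach 13.9% of peaks just before the summit, and the GA repeat core (right) is highest at 9.24% away from it and 4.39% just before the summit.

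The share was also followed along the ranking of deep intronic candidates. The words were picked for their difference between the peaks and the lower candidates, so a fall from the first to the last ranks follows from that choice. Forkhead-type words were present in 47.8% of the 433 peaks, 39.7% of the next 1000 deep intronic candidates, 34.0% of the following 1000 and 25.9% of the last 613. GTAAAC followed the same order, at 22.4%, 15.9%, 12.7% and 8.16%. From rank 4434 among deep intronic candidates on, the share with forkhead-type words ranged between 24.9% and 29.0% without a steady order. Among the peaks themselves, forkhead-type words were present in 45.8% of the 216 stronger peaks and 49.8% of the 217 weaker ones, and in 12 of the 25 strongest (48.0%).

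**Figure D2:**
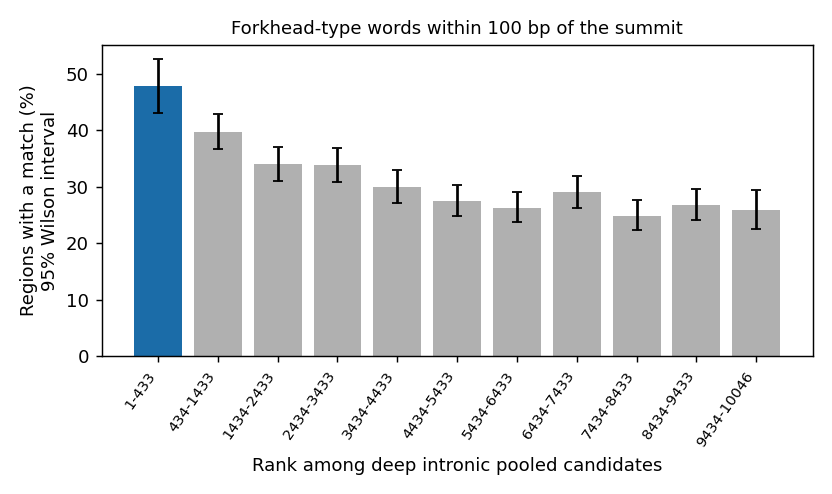
Percentage of deep intronic regions with a forkhead-type word within 100 bp of the summit (y axis, with 95% Wilson intervals) by rank among deep intronic pooled candidates (x axis). The reproducible peaks (blue) stand at 47.8%. The grey bars of lower-ranked candidates start at 39.7% and lie between 24.9% and 29.0% from rank 4434 on.

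The AT-rich words were not all particular to deep introns. TAAATA was as frequent in the 254 peaks in introns nearer to a TSS (43.3%) as in deep intronic peaks (42.7%), with a difference of -0.58 points (-8.25 to 7.0). GTAAAC was present in 22.4% of deep and 16.9% of nearer intronic peaks (difference 5.47, -0.81 to 11.3). For GTAAATA these shares were 16.2% and 18.5% (-2.34, -8.45 to 3.37). Forkhead-type words were present in 47.8% of deep intronic peaks, 46.5% of nearer intronic peaks, 40.5% of intergenic peaks and 35.2% of promoter peaks, and only the difference from promoter peaks had an interval above 0 (12.7 points, 7.32 to 18.0). CAAACA was more frequent than in each of the 3 other classes compared, with 40.9% of deep intronic peaks, 30.7% of nearer intronic peaks (difference 10.2, 2.71 to 17.3), 32.2% of intergenic peaks (8.68, 1.28 to 15.8) and 20.1% of promoter peaks (20.8, 15.7 to 25.9).

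Among 32 known motifs listed for comparison, the GA repeat core GAGAG showed the largest excess. It was present in 148 of 433 deep intronic peaks (34.2%), 24.7% of lower candidates, 21.4% of intron windows and 26.1% of promoter peaks. The difference was 9.48 points from lower candidates (5.03 to 14.2) and 8.09 points from promoter peaks (3.16 to 13.2), whereas the differences from nearer intronic peaks (30.3%; 3.87 points, -3.45 to 10.9) and intergenic peaks (29.9%; 4.26 points, -2.95 to 11.2) had intervals that included 0. It depended on the window and the library: with 50 bp on each side of the summit the difference from lower candidates was 2.46 points (-0.77 to 6.26), and with replicate 2 alone it was 15.1 points. GCCAT, the core of the Pleiohomeotic (Pho) site, differed most in the other direction, with 31.9% of peaks and 41.8% of lower candidates (-9.95 points, -14.4 to -5.24), and its share in intron windows was 35.5%. GCCAT was present in 29.5% of nearer intronic, 37.1% of intergenic and 30.9% of promoter peaks. Its differences between deep intronic peaks and these classes all had intervals that included 0. TATAAA was present in 26.6% of peaks, 18.5% of lower candidates and 23.9% of intron windows, a difference from lower candidates of 8.02 points that was 4.12 points (-1.27 to 10.3) in windows of middle GC content and 4.46 points with replicate 2 alone. Its share was similar in the other classes, at 23.6% of nearer intronic, 26.9% of intergenic and 26.9% of promoter peaks, with intervals on the differences that included 0. CCAAT was present in 28.2% of peaks, 33.0% of lower candidates and 35.2% of intron windows, and its difference from lower candidates was -4.86 points, against -1.50 points (-5.79 to 3.07) with replicate 1 alone and -8.80 points with replicate 2 alone. The Mef2 site TAAAAATA was present in 6.70% of peaks, 3.90% of lower candidates and 5.71% of intron windows, a difference from lower candidates of 2.80 points that was 1.98 points (-0.26 to 4.96) with replicate 2 alone. The Caudal site TTTATG (19.9% of peaks and 22.8% of lower candidates) and the initiator core TCAGT (27.3% and 29.9%) had differences whose intervals included 0. For the Caudal site the difference was -2.90 points, but -7.51 points (-11.0 to -3.47) with replicate 2 alone and -7.04 points (-11.8 to -1.30) in windows of middle GC content. The E-box CAGCTG was less frequent in deep intronic than in promoter peaks, at 7.39% and 18.0% (-10.6 points, -13.6 to -7.13), and its difference from lower candidates (10.1%) also had an interval that included 0. The deep intronic share of CAGCTG was near those of nearer intronic peaks (6.69%), intergenic peaks (7.58%) and intron windows (7.2%). A pair of elements of housekeeping promoters was rarer in deep intronic than in promoter peaks. The DNA replication-related element was found in 0.462% of deep intronic and 9.29% of promoter peaks, and Motif 1 in 0.231% and 8.4%. The deep intronic shares were near those of lower candidates (0.47% and 0.313%), intron windows (0.445% and 0.3%) and nearer intronic peaks (0.394% and 0.0%).

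A longer word, TATGTACA, occurred in 31 of 433 deep intronic peaks (7.16%), against 2.38% of lower candidates, 7.09% of nearer intronic peaks, 3.03% of intergenic peaks and 1.92% of promoter peaks. The difference from nearer intronic peaks was 0.07 points (-4.29 to 3.88). It was added after the word counts had been seen. The 3 regions of highest signal that hold it are shown because the word sits in longer runs of the same letters. They lie in Tre1 (a G protein-coupled receptor that guides germ cell migration; chrX:5678019-5678086, plus strand), in the overlapping genes CG43739 and sky (a regulator of synaptic vesicle traffic; chr2L:20897080-20897147, minus strand) and in Oatp30B (chr2L:9525778-9525845, minus strand), as 68 bases of dm6 with the first centred match in capitals.
Tre1: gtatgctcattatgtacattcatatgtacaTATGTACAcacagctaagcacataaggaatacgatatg
CG43739 and sky: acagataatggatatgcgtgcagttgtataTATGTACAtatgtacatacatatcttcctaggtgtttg
Oatp30B: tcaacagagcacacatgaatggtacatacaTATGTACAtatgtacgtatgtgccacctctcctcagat

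The centre of the word lay 2 bp from the summit in Tre1, 35 bp in CG43739 and sky, and 81 bp in Oatp30B. The Oatp30B peak is the one that also holds GTAAACA, 2 bp from its summit. Another word added in the same way, AGAGAGCG, occurred in 5.31% of deep intronic peaks and 0.957% of lower candidates, and in 6.30% of nearer intronic peaks.

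Deep intron sequence covers 49.4 Mb, or 35.9% of the 7 main chromosomes, which gives 8.77 peaks per Mb (95% Poisson interval 7.96 to 9.64). Of the authors' 30000 pooled candidates, 10046 were deep intronic, and 433 of these (4.31%, 3.93 to 4.73) were in the reproducible list, against 8.04% of candidates at any position. The same share was 9.92% for nearer introns, 5.80% for intergenic sequence, 18.0% for promoters and 1.98% for exons. Deep introns supplied 18.8% of the 3000 strongest pooled candidates and 38.9% of the 3000 weakest.

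Within deep introns, density decreased with distance from a TSS. The distance ranged between 1003 and 47324 bp, with a median of 2990 bp, against 4708 bp for lower candidates. There were 20.8 peaks per Mb (17.5 to 24.4) at 1 to 2 kb, 12.2 at 2 to 5 kb, 7.47 at 5 to 10 kb, 4.03 at 10 to 20 kb and 0.959 (0.438 to 1.82) beyond 20 kb, where 9 peaks lay. Replicate 1 and replicate 2, each taken alone, gave 20.9 and 21.3 peaks per Mb in the nearest bin and 1.17 and 0.746 in the farthest. The share of candidates above the signal cut of the reproducible list had the same order, from 6.46% at 1 to 2 kb to 1.78% beyond 20 kb.

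**Figure D3:**
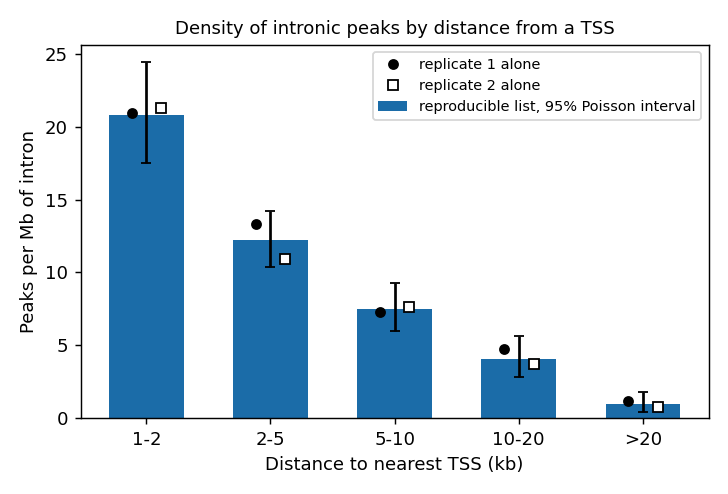
Deep intronic peaks per Mb of deep intron sequence (y axis, bars with 95% Poisson intervals) by distance to the nearest TSS (x axis), with the density from each replicate's own strongest 2413 regions (circle and square). The bars descend from 20.8 to 0.959 peaks per Mb, and both replicates show the same order.

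The 1000 bp limit cut through a continuous range of positions. Just inside it were peaks in rgr (1003 bp from a TSS, signal 107), in the overlapping genes Hyls1 and chif (1006 bp, 340), in Tab2 (1016 bp, 192) and in Oda (1020 bp, 171). Just outside were peaks in C3G (999 bp, 116), Glut1 (986 bp, 126), Mkp3 (983 bp, 123) and Lpin (980 bp, 104).

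First introns held 311 of the 433 peaks (71.8%, 67.4 to 75.9), counting the first intron of any transcript. First introns held 52.8% of lower candidates (difference 19.0 points, 14.4 to 23.2) and 40.7% of deep intron bases. First introns lie near promoters, and whether this accounts for the difference was not tested. Within bins of TSS distance the difference ranged between 10.3 points (2.45 to 17.4) at 2 to 5 kb and 33.5 points (1.87 to 55.3) beyond 20 kb. The latter bin holds 9 peaks. At 1 to 2 kb from a TSS, 85.6% of peaks, 67.7% of lower candidates and 61.5% of bases were in first introns. At 5 to 10 kb these shares were 60.2%, 47.1% and 42.6%. By the first intron of the longest transcript alone, 49.4% of peaks and 28.9% of bases were counted.

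Peaks were spread over the large chromosome arms, with 83 on X (8.87 per Mb), 80 on 2L (10.3), 93 on 2R (11.0), 92 on 3L (9.68) and 85 on 3R (6.63, 5.30 to 8.20). Chromosome 4 held none in 0.526 Mb, where the upper 95% Poisson limit is 7.01 per Mb, although 65 pooled candidates lay there, 21 in the list of replicate 1 and 159 in that of replicate 2. The Y chromosome had no candidate in its 0.950 Mb.

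The signal value deposited by the authors, whose scale is unknown, ranged between 101 and 921 in the deep intronic peaks with a median of 134. The median was 135 in nearer intronic peaks, 133 in intergenic peaks and 134 in promoter peaks. All but 2 were found in the candidate list of replicate 1 and all but 1 in that of replicate 2. The peaks in GATAd (signal 230) and one of those in crp (103) had no counterpart in replicate 1, and the peak in CG14082 (103) had none in replicate 2. The median rank was 1179 in replicate 1 and 1334 in replicate 2. Among each replicate's 2413 strongest regions, replicate 1 held 344 of the peaks (79.4%) and replicate 2 held 320 (73.9%). Both held 244 (56.4%, 51.6 to 60.9), and 13 were among the strongest of neither. The corresponding share was 56.7% for nearer intronic, 52.7% for intergenic and 56.9% for promoter peaks, and each difference had an interval that included 0 (for promoter peaks -5.92 to 4.77 points). Ranks in both replicates had a Spearman correlation of 0.39 across the 430 peaks found in both, a description over regions selected for strength in the same libraries.

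**Figure D4:**
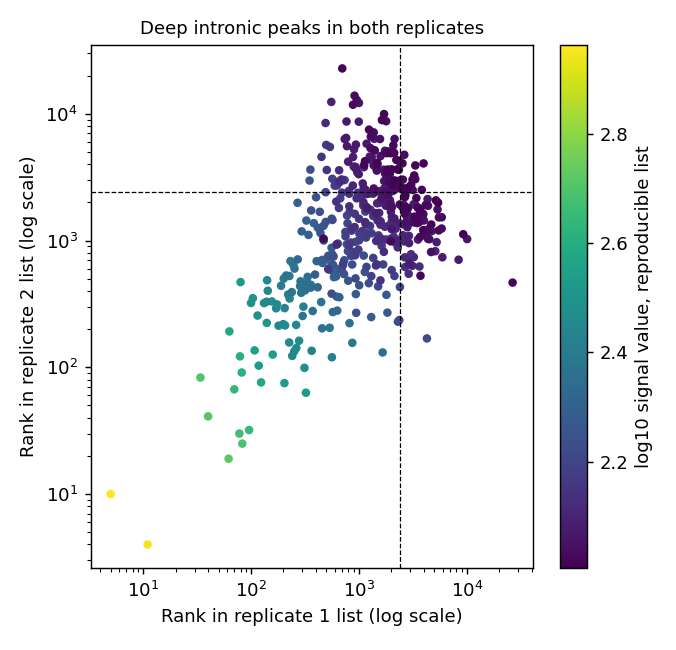
Rank of each deep intronic peak in the candidate list of replicate 1 (x axis, log scale) and replicate 2 (y axis, log scale), coloured by log10 signal value in the reproducible list. Dashed lines mark rank 2413: 244 peaks lie below both lines, and the peaks in sbb and CG11050 stand apart at the lower left.

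The strongest peak was in the first intron of sbb (scribbler, also called brakeless, a transcriptional corepressor) at chr2R:18336933-18337316, 20111 bp from the nearest TSS. Its signal value was 921 in the reproducible list, 562 in replicate 1 and 358 in replicate 2. It ranked number 5 in replicate 1 and number 10 in replicate 2. The next was at chr2L:6612564-6612855 in CG11050, 1031 bp from a TSS, with a summit in an intron of 140 bp. Its signal value was 884, with 441 in replicate 1 and 442 in replicate 2, and it ranked number 11 and number 4. No other deep intronic peak was among the 25 strongest of the whole list, and both replicates ranked them within the first 11.

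The next peaks had lower signal values. The third and seventh peaks, with signal values of 526 and 467, were both in the first intron of ush (u-shaped, a zinc finger cofactor of GATA factors). The third ranked number 62 in replicate 1 and 19 in replicate 2, and the seventh 78 and 30. The peak in Tlk (tousled-like kinase, which acts on histone chaperones) had a signal of 510 and ranks of 40 and 41. The peak in cno (canoe, an adherens junction protein) had a signal of 503 and ranks of 34 and 83. The peak in CG32772 followed at 492, with ranks of 83 and 25. All of these were within the first 100 ranks of both replicates, as were 10 deep intronic peaks in all.

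The remaining peaks of the 25 are given in order. Trl, host of the peak printed above, had a signal of 446 and ranks of 96 and 32. Tre1 had 441 and ranks of 70 and 67. Raf, the kinase below Ras in the mitogen-activated protein kinase cascade, had 415 and ranks of 82 and 91, and these genes complete the first 10. Hr4, a nuclear receptor of the ecdysone response, had 404, with ranks of 79 and 122. Replicate ranks differed more for Btk, a Tec-family tyrosine kinase (335, ranks 323 and 63), and lncRNA:CR44357 (332, ranks 80 and 470). The other hosts among the 25, with signal values between 301 and 381, were for (a cGMP-dependent kinase), norpA (a phospholipase C), ImpL2 (a secreted insulin-binding protein), CG12769, Hyls1 with chif, CG9837, NetB (a netrin axon guidance cue), S, CG32486, Eip75B, Atg17 and Tob. In 19 of the 25 the nearest TSS belonged to the host; among all 433 it did in 314 (72.5%). In the other 119 it belonged to another gene, as for the NetB peak, 1507 bp from the TSS of hog, and the third-ranked peak, in ush, 1424 bp from that of cbt.

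The 433 peaks fell in introns of 336 genes, 323 of them protein coding, out of 7095 genes with deep intron sequence (4.74%). A single peak was found in 260 of these genes, 2 or more in 76 and 3 or more in 30. In total 110 peaks (25.4%) lay within 5 kb of another deep intronic peak. Hosts had long introns: their median deep intron length was 12.9 kb, against 0.542 kb in the other genes. The share of genes hosting a peak was 0.278% below 1 kb of deep intron, 5.11% at 1 to 5 kb, 11.1% at 5 to 20 kb, 19.2% at 20 to 50 kb and 21.7% above. Per Mb the order differed, with 22.4 peaks at 1 to 5 kb and 3.82 above 50 kb.

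The gene with the most peaks was crp (cropped, a basic helix-loop-helix factor), with 8 in 19.4 kb of deep intron. Their signal values were 284, 167, 132, 125, 121, 114, 104 and 103. The strongest ranked number 241 in replicate 1 and 123 in replicate 2, and 5 of the others ranked below 2413 in replicate 1 or were absent from it. sbb held 6, and the 5 besides the strongest had signal values between 105 and 187. The noncoding gene lncRNA:CR44357 also held 6, of which 5 were shared with the overlapping gene CG1677. ush, Eip75B and ftz-f1 held 5 each. Hr4, Tet (a dioxygenase that oxidizes methylated bases), Lrch and lncRNA:CR45939 held 4 each. A pair of the Tet intervals overlapped, and both were matched to the same region of each replicate. In lncRNA:CR45939 all 4 were shared with ftz-f1, whose intron it overlaps. The 19 hosts with 3 peaks included the signalling and transcription genes Raf, EcR, NFAT, shn, bun and tara, the chromatin genes Mi-2 and simj (both of the NuRD remodelling complex), the elongation factor gene Su(Tpl), whose 3 peaks are the same ones as those of the overlapping Mi-2, and CHES-1-like, itself a forkhead-family factor. The remaining genes with 3 were Tlk, for, Dys, lncRNA:iab8, atos, Tpr2, siz, px and babos. Among hosts with 3 or more peaks, density per length of deep intron was highest in babos, with 3 in 6.30 kb, followed by crp and by Lrch, with 4 in 9.72 kb.

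Nuclear receptor genes had the highest share of hosts among the lists: 7 of the 15 with deep intron hosted a peak (46.7%, 24.8 to 69.9), against 4.74% of all genes. They held 21 peaks, or 55.2 per Mb of their 381 kb of deep intron, against 8.77 per Mb in all. The share for all genes includes 3960 genes with below 1 kb of deep intron, of which 0.278% hosted a peak. It was 19.2% for genes with 20 to 50 kb and 21.7% above. No list was matched for deep intron length. All lists were chosen with earlier results of these data known, so their shares are descriptions. Most of the 7 nuclear receptor hosts belong to the response to the steroid hormone ecdysone, which times the moults and metamorphosis of flies. The ecdysone receptor gene EcR held 3, with signal values of 280, 167 and 118. The strongest EcR peak ranked number 262 in replicate 1 and 216 in replicate 2. Eip75B, an ecdysone-induced receptor that blocks Hr3, held 5, with signal values of 306, 254, 197, 133 and 114. The strongest Eip75B peak ranked number 100 and 322. Hr3 itself held 1, of signal 286, which ranked number 252 and 134 and also lies in CG12912 and CG46321. Hr4 held 4, with signal values of 404, 181, 176 and 140. ftz-f1, the competence factor that follows the hormone pulse, held 5, with signal values of 190, 125, 105, 105 and 103, of which 1 pair of intervals overlapped. The xenobiotic receptor Hr96 held 1 of signal 109, and the fatty acid sensor Hnf4 held 2 of 107 and 105. With either replicate alone 40.0% of the 15 genes hosted a peak, and other lists were then higher: the long transcription factor (53.1%) and Egfr (47.4%) lists with replicate 2, and the long transcription factor (43.8%), Hox and Hedgehog lists with replicate 1. Differences between lists were not tested.

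**Figure D5:**
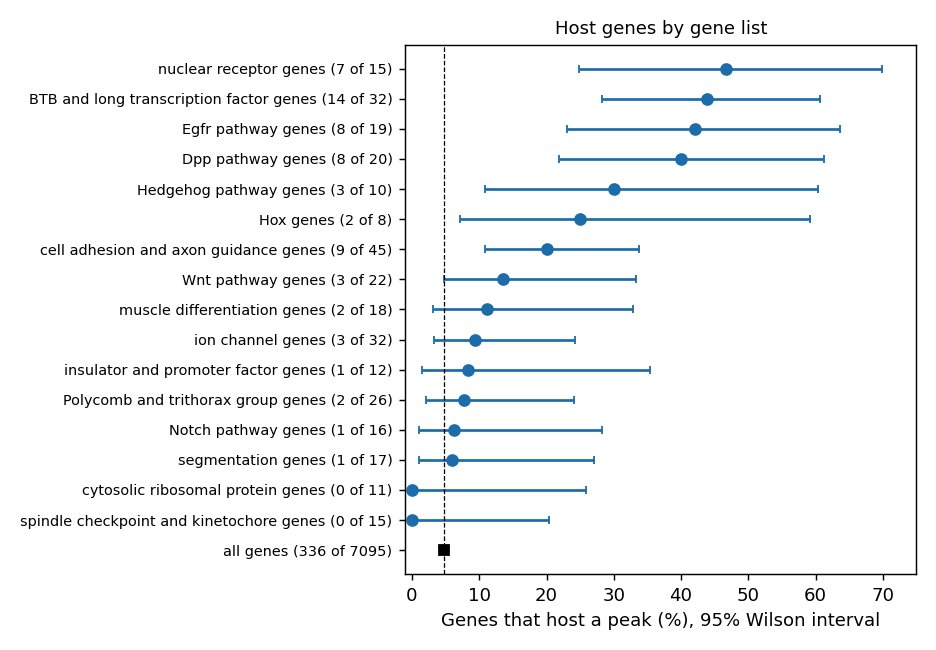
Percentage of genes with deep intron sequence that host a deep intronic peak (x axis, with 95% Wilson intervals) for 16 gene lists (y axis, with counts) and for all such genes (black square and dashed line, 4.74%). Nuclear receptor, long transcription factor, Egfr and Dpp lists lie between 40.0% and 46.7%, and ribosomal protein and kinetochore lists are at 0. The lists were not matched for deep intron length, and all genes with 20 to 50 kb of it stood at 19.2%.

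Long transcription factor genes, including those with BTB domains, hosted a peak in 14 of 32 (43.8%, 17.3 per Mb). Besides sbb and Trl, the highest signals were in Mef2 (the muscle differentiation factor; 277) and bab1 (a BTB factor of limb and ovary patterning; 241). sbb was placed in this and the Dpp list with earlier results known, and without it 13 of 31 hosted a peak (41.9%, 13.3 per Mb).

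Genes of the Egfr pathway, in which ligands released with the help of Star activate Ras, Raf and the ETS factor Pointed, hosted a peak in 8 of 19 (42.1%, 33.2 per Mb). Peaks occurred along the pathway: the ligand gene vn (197), the ligand export gene S (316 and 119), the receptor gene Egfr (highest signal 134), the transcription factor genes pnt (195) and aop (133), and the genes of the secreted inhibitor aos (197) and the adhesion protein ed (170). The strongest S peak ranked number 104 in replicate 1 and 351 in replicate 2, and the vn peak 270 and 1986. Raf, with its 3 peaks, was not matched by the symbol in the list and is not among the 19. Lk6, placed in this list with earlier results known, had 117, and without it 7 of 18 hosted a peak (38.9%).

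Genes of the Dpp (BMP) pathway hosted a peak in 8 of 20 (40.0%, 48.1 per Mb), and in 7 of 19 without sbb (36.8%, 34.7 per Mb). They covered the ligand gene dpp (138), the receptor gene wit (117), the extracellular regulators sog (103), dally (120) and dlp (159), the nuclear repressor gene shn (221, 154 and 105) and the inhibitory Smad gene Dad (245). The Dad peak ranked number 239 in replicate 1 and 392 in replicate 2, and the dpp peak 813 and 2344. With replicate 2 alone 25% of the Dpp list hosted a peak, and with replicate 1 alone 40.0%.

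Further signalling and patterning lists varied between the replicates. Hedgehog genes hosted a peak in 3 of 10 (30%; the receptor gene ptc at 178, with dlp and dally), Wnt genes in 3 of 22 (13.6%; the receptor genes fz at 182 and fz2 at 123, and the kinase gene sgg at 102), and Notch genes in 1 of 16 (6.25%; the coactivator gene mam at 144). Hox genes hosted a peak in 2 of 8 (25%; Abd-B at 125 and lab at 106), and the stronger Abd-B peak ranked number 555 in replicate 1 and 12418 in replicate 2. Segmentation genes hosted a peak in 1 of 17 (5.88%; cad at 135). With replicate 1 alone the Hedgehog and Hox lists were each at 50%, above the nuclear receptor list. With replicate 2 alone Hedgehog genes were at 20%, Hox genes at 12.5% and Wnt genes at 4.55%.

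Lists of long neural genes had fewer peaks per Mb than all genes. Among all genes, density was 9.12 per Mb in those with 20 to 50 kb of deep intron and 3.82 in those above 50 kb. The lists were not matched for length, so their low density cannot be assigned to neural genes as such. Adhesion and axon guidance genes have 2161 kb of deep intron, the most of any list, and hosted a peak in 9 of 45 (20%) at 4.63 per Mb, below the 8.77 per Mb of all genes. The highest signals were in NetB (327) and in fra, which encodes a netrin receptor (299), followed by kirre (153) and caps (137). Ion channel genes hosted a peak in 3 of 32 (9.38%) at 3.14 per Mb, in Ih (132), Shal (118) and KCNQ (106). Muscle genes did so in 2 of 18 (11.1%, but 11.4 per Mb; Mef2 277 and how 104), and insulator and promoter factor genes in 1 of 12 (8.33%, but 22.9 per Mb; Trl). Polycomb and trithorax group genes, also above the density of all genes at 23.0 per Mb, did so in 2 of 26 (7.69%; trx 293 and ph-p 127). None of 11 ribosomal protein genes or 15 spindle checkpoint and kinetochore genes did, with upper limits of 25.9% and 20.4%, and the kinetochore list has 5.21 kb of deep intron in all.

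Host genes more often had a BuGZ peak at a promoter as well. A reproducible peak within 250 bp of an own TSS was found for 105 of 336 hosts (31.2%) and for 911 of 6759 other genes with deep intron (13.5%), a difference of 17.8 points (13.0 to 23.0). The difference was 21.0 points among genes with 5 to 20 kb of deep intron, 23.7 points at 20 to 50 kb and 23.5 points above, and 5.75 points (-2.0 to 16.5) at 1 to 5 kb.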

How the data were processed

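Peaks were taken from whole embryos in 2 biological replicates. Per the labels the assembly is dm6; the aligner, the peak caller, the reproducibility threshold and the depth were not given in the sources used here. The authors deposited candidate regions for each replicate and for the pooled reads (30000 each) and a reproducible list of 2413. The reproducible list holds the pooled candidates of highest signal value. The authors deposited a signal value and a −log10 q-value for each region; the scale of the signal and the depth behind it are unknown, so replicates were compared by rank. Summits (start plus deposited offset) were placed on Ensembl BDGP6 annotation and RefSeq Release 6 sequence with Python 3.11.15, numpy 2.4.6, pandas 2.3.3 and scipy 1.17.1. Replicate regions were matched within 200 bp of a summit, taking the best rank. Shares have 95% Wilson intervals and differences 95% Newcombe intervals. Such intervals cover counting error over regions, and no p-values were computed because there is 1 group. Searches used 100 bp on each side of the summit and were tested on simulated data. Named were the 25 strongest peaks, hosts with at least 3, up to 4 hosts per list and others chosen after their values were seen, 8 motifs, 10 words of 6 bases and 4 peaks on each side of the limit. Members and lists were chosen with earlier results of these data known. One gene list and 1 sequence are not reported here. Alternatives covered the limit, windows, candidate sets, annotation and each replicate alone.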

Additional observations from a re-analysis of the deposited data

How the results depend on the processing

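With a limit of 500 bp or 2000 bp from a TSS, the share of reproducible peaks in deep introns was 24.1% or 11.9% in place of 17.9%, and the share of deep intronic candidates in the reproducible list 4.95% or 3.69% in place of 4.31%; the definition itself sets these. With summits matched within 50 bp, 45.0% of peaks were among the strongest regions of both replicates, against 56.4% within 200 bp. By the longest transcript the first intron share was 49.4%. Within 2 kb of another peak lay 68, against 110 within 5 kb. Assigning peaks to the nearest TSS gene gave 3.90% of genes in place of 4.74%, and 0% of Hedgehog and 4.44% of adhesion and guidance genes, so those lists rest on host introns and not on the nearest TSS. With each replicate alone, the share of reproducible peaks in deep introns was 17.3 to 18.9%, the candidate share 4.22 to 4.64%, the first intron share 69.9 to 72.9%, peaks within 5 kb of another 94 to 113, genes hosting a peak 4.50 to 5.30%, and the difference from lower candidates 11.3 to 14.1 points for GTAAAC and 16.0 to 22.3 points for the forkhead-type words; why the replicates differ was not tested. With GC content held to the middle range, an alternative chosen after seeing the data, the forkhead-type difference was 18.9 points. Of 204 values for single motifs, words and lists under the alternatives, 191 moved by less than their counting interval, and 13 moved further. Of the values, 3 changed sign, all of differences whose interval included 0: the Caudal site within 50 bp (0.96 points), and the initiator core within 200 bp (0.16 points) and with replicate 1 alone (1.62 points). The difference for the Pho core was -4.37 points within 50 bp and -5.10 with replicate 2 alone. No paired analysis was possible because the series has 1 group.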

Other observations

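An annotated mobile element covered the summit in 0 of 433 peaks, which allows a share of up to 0.879% by the Wilson interval, against 0.574% of lower candidates and 6.90% of intron windows. Soft-masked sequence, which also includes simple repeats, covered 16.6% of the peak summits, 15.2% of those of lower candidates, 13.8% of nearer intronic, 14.4% of intergenic and 12.1% of promoter peak summits, and 23.8% of intron windows.

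Forkhead-type words were present in 50.5% of the 311 peaks in first introns and 41.0% of the 122 in other introns, and in 52.0% of the 127 peaks more than 5 kb from a TSS and 46.1% of the 306 nearer ones. They were present in 49.2% of the 244 peaks among the strongest regions of both replicates and in 46.0% of the other 189. No test of these differences was made.

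In 316 of the 433 peaks the summit was at the middle of the authors' interval, and the median interval was 336 bp wide. In 2 places neighbouring intervals overlapped, and no interval was repeated.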
